A study of Mus musculus with 12 samples.

Results

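The ZFAT peaks of C57BL/6 (B6) thymocytes were compared between the 2 controls against which they had been called, an IgG immunoprecipitation and an input. Both lists came from the same ZFAT library, so the ChIP fragments were shared and the control differed. Regions of the 2 lists that overlapped by at least 1 bp were counted as shared. The IgG list held 427 peaks and the input list 2000, which made 2137 regions. The sources used here do not say whether the input list was limited to this round number, and such a limit would bear on every count of regions called against IgG only. Of these, 290 were called against both controls, 137 against IgG only and 1710 against input only. The 7 peak lists of the study held 21883 peaks in all.

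The study comprised 12 thymocyte samples of mice aged 4 to 5 weeks, of which 6 were ChIP libraries with peak lists and the others input or IgG controls. B6 mice were C57BL/6, floxed mice (Zfatf/f) carried a Zfat allele with recombination sites on either side, and Lck-Cre mice (Zfatf/f-LckCre) carried in addition a Cre driven by Lck, which acts in the T lineage. Chromatin of all groups was crosslinked in 1% formaldehyde (10 min), cut with micrococcal nuclease (375 units, 0.5 h) and then sonicated, and libraries were amplified by 6 to 13 PCR cycles. ZFAT was precipitated with a monoclonal antibody. The histone marks were profiled in floxed and Lck-Cre thymocytes, so the marks set beside the B6 peaks came from other animals than the ZFAT library. Each ChIP group was 1 library without replicates. The intervals given are exact Clopper-Pearson 95% intervals that cover counting error only, and no p-value between classes was computed.

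ZFAT is a nuclear protein with zinc fingers and an AT-hook that is expressed in thymocytes and is known for its role in T cell development. An input control is fragmented chromatin sequenced without immunoprecipitation and records differences in fragmentation, mapping and copy number. An IgG control passes through the precipitation with an antibody of no intended target, and in addition records chromatin that is carried along unspecifically. Acetylation of histone H3 at lysine 9 and lysine 27 (H3K9ac/K27ac) marks active promoters and enhancers, whereas trimethylation at lysine 9 (H3K9me3) marks silenced chromatin, including repeats.

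As deposited, most IgG peaks were also found with input, and most input peaks were not found with IgG. In the IgG list, 67.9% of the peaks (63.3 to 72.3%, 290 of 427) overlapped an input peak. In the input list, 14.5% (13.0 to 16.1%, 290 of 2000) overlapped an IgG peak. The lists differed in length: with both reduced to the 427 peaks of highest P score, 23.2% (19.3 to 27.5%, 99 of 427) of either list were shared. Each shared IgG peak had exactly 1 partner. The regions called with one control only were not shifted versions of peaks in the other list. The median gap from an IgG-only peak to the nearest input peak was 240930 bp, and 0 of the 137 lay within 500 bp of one. For the input-only peaks the median gap was 1356276 bp, and 1 of 1710 lay within 500 bp of an IgG peak.

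The number of ZFAT fragments stacked at the summit (the pileup) was inferred from the deposited fold and P score of each peak. The P score is −log10 of the caller's p and reaches a ceiling at 323.3, where the pileup cannot be solved. Most peaks rested on few fragments. The median pileup was 5 in shared, 6 in IgG-only and 6 in input-only peaks, and 54.5% of the shared, 46.0% of the IgG-only and 46.3% of the input-only peaks had a pileup of 3 to 5. All 17 IgG peaks and all 18 input peaks at the ceiling were found in the other list. Below it, the share of IgG peaks also called against input was 84.9% (75.5 to 91.7%) at a pileup of 3, 63.0% at 4 to 5, 40.4% (30.4 to 51.0%) at 6 to 9 and 81.1% (71.7 to 88.4%) at 10 or more. The corresponding shares of input peaks were 28.3%, 12.3%, 6.18% and 18.2%. In both lists the class of 6 to 9 fragments was thus shared least, and the weakest and strongest peaks more often.

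Peaks with a P score of at least 20 were shared more often than the lists as a whole. At a P score of at least 10 the shares were still close to those of the whole lists. They were 67.6% (127 of 188) of the IgG peaks and 16.3% (136 of 836) of the input peaks. Of the IgG peaks with a P score of at least 20, 96.5% (55 of 57) had an input partner. Of the input peaks past the same score, 70.7% (70 of 99) had an IgG partner. At a P score of at least 50, 34 of 35 IgG peaks and 38 of 46 input peaks were shared.

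The classes differed in the chromatin marks of their regions. A floxed H3K9ac/K27ac peak overlapped 20.2% of all 2137 B6 regions. It overlapped 29.0% of the shared peaks (23.8 to 34.6%, 84 of 290), 34.3% of the IgG-only peaks (26.4 to 42.9%, 47 of 137) and 17.6% of the input-only peaks (15.8 to 19.5%, 301 of 1710). The intervals of the shared and IgG-only peaks overlapped each other, and both lay above that of the input-only peaks. With both lists cut to a P score of at least 10 and the classes formed again, the order of the first 2 classes turned. A partner of lower score then no longer counted. The shares were 54.1% of the shared (44.8 to 63.2%, 66 of 122), 31.8% of the IgG-only (20.9 to 44.4%, 21 of 66) and 16.9% of the input-only peaks (14.3 to 19.9%, 121 of 714). The ZFAT summit lay inside the acetylation peak in 80 of 84 shared, 47 of 47 IgG-only and 293 of 301 input-only regions.

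H3K9me3 ran in another order. A floxed H3K9me3 peak overlapped 7.30% of all B6 regions. It overlapped 2.41% of the shared peaks (0.976 to 4.91%, 7 of 290), 7.30% of the IgG-only peaks (3.56 to 13.0%, 10 of 137) and 8.13% of the input-only peaks (6.88 to 9.53%, 139 of 1710). The shared interval lay below the input-only interval, and the IgG-only interval overlapped both. Neither mark was found at 69.3% of the shared, 59.1% of the IgG-only and 74.6% of the input-only peaks. Both marks together were found at 2 shared, 1 IgG-only and 5 input-only regions.

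Shared peaks were found again in the other ZFAT libraries, which were not used to define the classes, at a higher share than the rest. A floxed ZFAT peak overlapped 7.25% of all B6 regions, and 29.0% of the shared peaks (23.8 to 34.6%, 84 of 290). It overlapped 6.57% of the IgG-only peaks (3.05 to 12.1%, 9 of 137) and 3.63% of the input-only peaks (2.79 to 4.62%, 62 of 1710). The share in shared peaks lay above both other intervals, which overlapped each other. Still, 206 of the 290 shared peaks had no floxed ZFAT peak, and 9 of the 62 input-only regions with one had a control background of at least 20. A ZFAT peak of Lck-Cre thymocytes, in which Cre is designed to delete the floxed sequence, overlapped 1.54% of all B6 regions, 8.97% of the shared peaks (26 of 290), 0.730% of the IgG-only peaks (1 of 137) and 0.351% of the input-only peaks (6 of 1710). The IgG-only region and 5 of these 6 input-only regions had a control background of at least 20, as had 1 of the 26 shared ones. An Lck-Cre H3K9ac/K27ac peak overlapped 4.96% of all B6 regions, 8.28% of the shared (5.37 to 12.1%), 5.11% of the IgG-only (2.08 to 10.2%) and 4.39% of the input-only peaks (3.47 to 5.47%). These last 3 intervals overlapped.

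**Figure D1:**
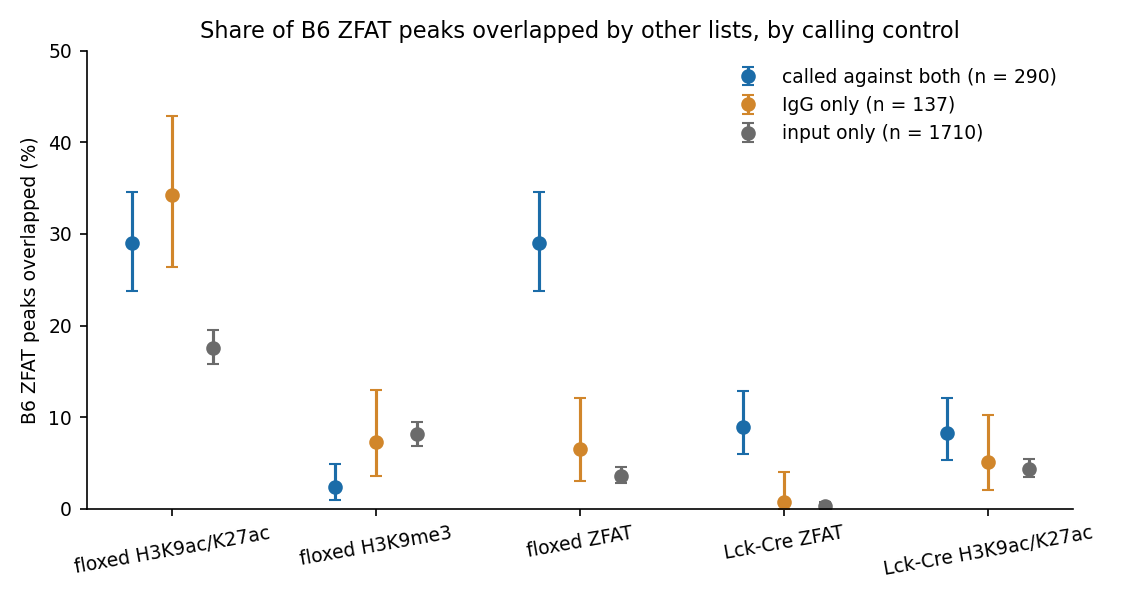
Percent of B6 ZFAT peaks in each class (called against both controls, IgG only, input only) that were overlapped by at least 1 bp by a peak of each other list, with exact 95% intervals for counting error as bars. Shared and IgG-only peaks lie above input-only peaks for acetylation (29.0, 34.3 and 17.6%), while only shared peaks reach 29.0% for floxed ZFAT.

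Acetylated regions were split differently by the floxed ZFAT list in each class. Of the shared peaks with a floxed ZFAT peak, 77.4% (67.0 to 85.8%, 65 of 84) were acetylated. Of the shared peaks without one, 9.22% (5.64 to 14.0%, 19 of 206) were. In the IgG-only class 4 of the 9 peaks with a floxed ZFAT peak were acetylated, and 33.6% (25.5 to 42.5%, 43 of 128) of those without one, the latter above the shared interval. In the input-only class the shares were 40.3% (25 of 62) with and 16.7% (15.0 to 18.6%, 276 of 1648) without a floxed ZFAT peak. So 43 of the 47 acetylated IgG-only regions had no floxed ZFAT peak, against 19 of the 84 acetylated shared regions. These regions also differed in ZFAT fragments, with a median pileup of 7 in the IgG-only ones and of 22 in the shared ones below the ceiling. This split was not counted again by pileup. Among all peaks of 6 to 9 fragments, acetylated or not, a floxed ZFAT peak was present at 2 of 38 shared and 4 of 56 IgG-only peaks.

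Since the classes held different numbers of weak and strong peaks, the marks were counted again within steps of pileup. The step of 10 or more fragments is open, so it does not match the classes in pileup. Acetylated shared regions below the ceiling had a median of 22 and at most 170 fragments, and acetylated input-only regions at most 30. Among shared peaks acetylation was seen at 0 of 73 with 3 fragments, which allows a share of up to 4.93% by the exact interval. It was seen at 5 of 85 with 4 to 5 fragments and at 7 of 38 with 6 to 9. At 10 or more fragments it was seen at 72.7% (61.4 to 82.3%, 56 of 77), and at the ceiling at 16 of 17. The 84 acetylated shared regions were therefore mainly the strong ones. IgG-only peaks had acetylation already at lower pileups, at 22.0% (11.5 to 36.0%, 11 of 50) with 4 to 5 fragments and at 44.6% (31.3 to 58.5%, 25 of 56) with 6 to 9. Input-only peaks reached 10.4% (8.07 to 13.1%), 17.9% (14.8 to 21.2%) and, with 10 or more fragments, 37.0% (31.8 to 42.3%). At 6 to 9 fragments the IgG-only interval lay above the input-only interval, and at 10 or more the shared interval did. The IgG-only share at 10 or more was 61.1% (35.7 to 82.7%, 11 of 18), and its interval overlapped those of both other classes.

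The share of shared peaks found again in floxed ZFAT was high only at high pileup. The step of 10 or more fragments is open, so pileup was not matched between the classes in it. A floxed ZFAT peak was present there at 83.1% of the shared peaks (72.9 to 90.7%, 64 of 77), 16.7% of the IgG-only peaks (3 of 18) and 11.1% of the input-only peaks (8.01 to 15.0%, 38 of 341). All 17 shared peaks at the ceiling had one. At a pileup of 3 to 5 it was present at 0.633% of the shared (1 of 158), 3.17% of the IgG-only (0.387 to 11.0%, 2 of 63) and 0.884% of the input-only peaks (7 of 792). The intervals of these 3 low shares overlapped. For H3K9me3, the share in input-only peaks ran from 4.86% at 3 fragments over 6.75% and 8.32% to 12.0% at 10 or more (41 of 341). In that last step H3K9me3 was seen at 2 of 77 shared peaks and at 2 of 18 IgG-only peaks (11.1%, 1.38 to 34.7%).

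**Figure D2:**
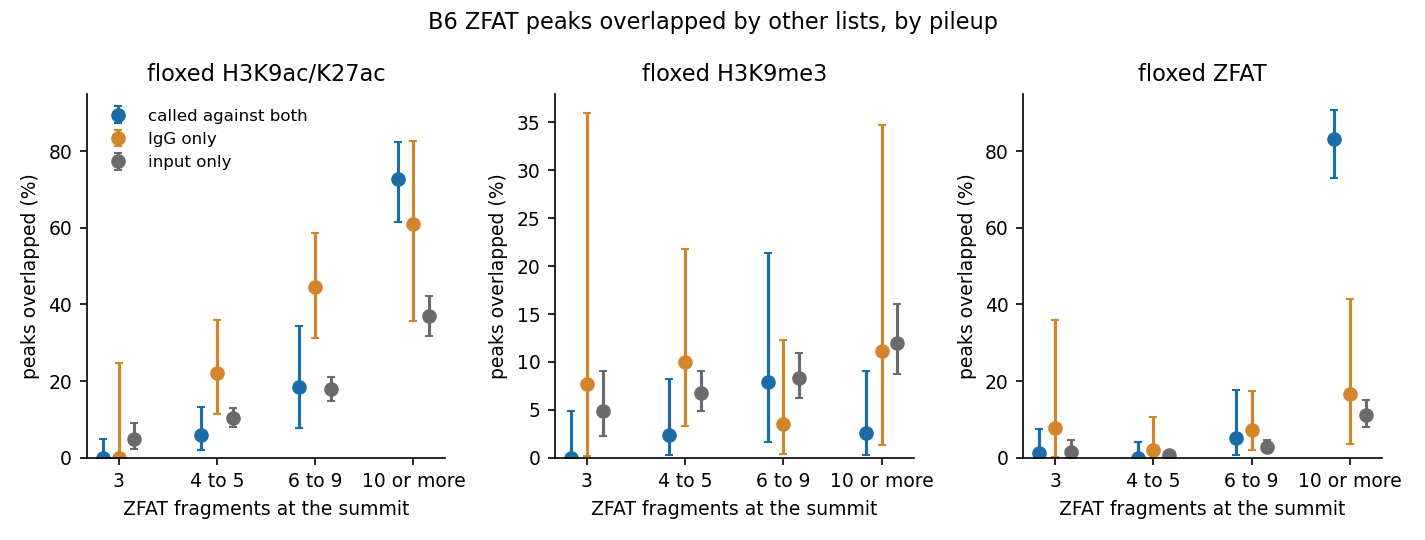
Percent of B6 ZFAT peaks overlapped by floxed H3K9ac/K27ac, H3K9me3 and ZFAT peaks, by the number of ZFAT fragments at the summit and by class, with exact 95% intervals; peaks at the P score ceiling are not plotted, and the middle panel has its own scale. At 10 or more fragments the shared peaks stand at 72.7% for acetylation and 83.1% for floxed ZFAT, the IgG-only peaks at 61.1 and 16.7%, and the input-only peaks at 37.0 and 11.1%. This last step is open, so pileup is not matched between the classes in it.

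The acetylation peaks that were hit had similar folds in every class, while their P scores differed more. Their median fold was 10.2 at shared, 10.6 at IgG-only and 9.19 at input-only regions, against 8.62 over the whole floxed H3K9ac/K27ac list. In the same order their median P score was 39.1, 32.6 and 30.4, against 25.9 over the list. The H3K9me3 peaks had a median fold of 4.85, 5.20 and 5.68, against 5.64 over their list. Their median P score was 6.50, 11.1 and 10.7, against 9.90 over the list, with only 7 such peaks at shared and 10 at IgG-only regions.

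Because the ChIP reads were the same, a shared pair of peaks showed directly what the controls contributed. The background of a peak, which is the control level scaled to the ChIP library, took stepwise values. Each step was met by a whole number of control fragments, either over the summit or in 5 kb or 10 kb around it, or by the genome-wide mean of 0.0507, which is the lowest value it can take. This held for all 410 IgG and all 1982 input peaks below the ceiling. One IgG fragment over the summit counted as 0.454 and 1 input fragment as 0.373. The implied depths were about 624000 ChIP fragments, 1370000 IgG fragments and 1680000 input fragments.

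Of the 290 pairs, 179 had the same summit and 279 had summits within 50 bp. The background was known in both lists for 272 pairs, and the pileup was the same in 271 of them. Both backgrounds were at the genome-wide mean in 112 pairs. The IgG background was the higher one in 98 (36.0%) and the input background in 62. These counts cover only regions that passed with both controls. As 1 IgG fragment counted for more than 1 input fragment, equal numbers of fragments over a summit also gave a higher IgG background. The input fold over the IgG fold had a median of 1.00 (quartiles 1.00 to 1.10, range 0.397 to 3.11). The fold was higher with input in 111 pairs, higher with IgG in 67 and the same in 112.

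The IgG background was the higher one more often than the input background in acetylated pairs and in other pairs. Among the 68 acetylated pairs with known backgrounds, IgG was higher in 45 and input in 20, with median backgrounds of 1.82 for IgG and 1.22 for input and a median pileup of 22. Among the 204 pairs without acetylation, IgG was higher in 53 and input in 42, both were at the genome-wide mean in 109, and the median pileup was 4. The 2 groups of pairs thus differed in pileup as well as in background, and no difference between them in the balance of the controls was tested.

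**Figure D3:**
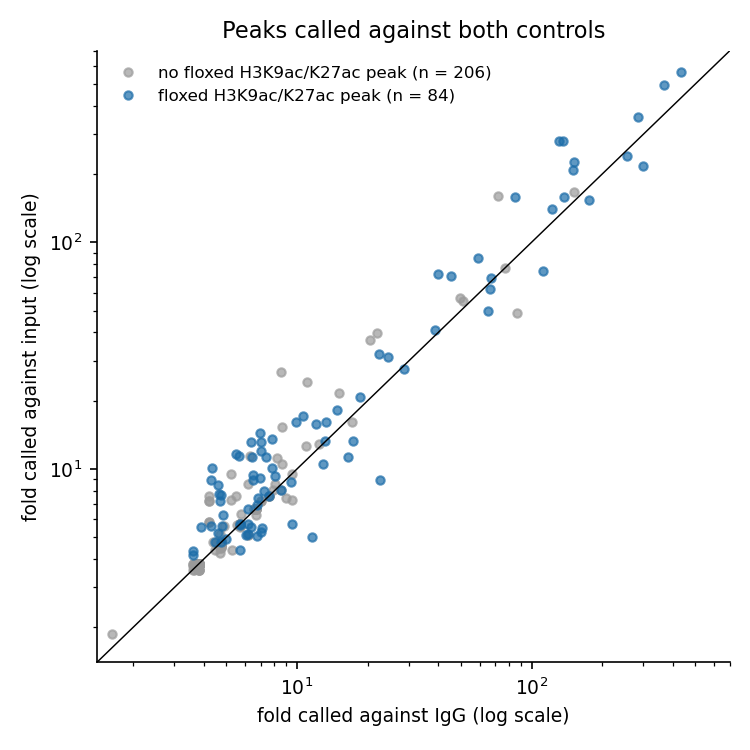
Fold of each shared B6 ZFAT peak as called against IgG (horizontal, log scale) and against input (vertical, log scale), for regions with (84) and without (206) a floxed H3K9ac/K27ac peak; the line marks equal folds. Of the 290 pairs, 111 lie above the line, 67 below and 112 on it, many of them on top of each other at low fold.

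Acetylated ZFAT peaks had more control fragments over their summits than other ZFAT peaks, but also more ZFAT fragments. In the IgG list the background was set by fragments over the summit at 59.1% of the acetylated peaks (68 of 115) and at 13.2% of the others (39 of 295). In the input list the shares were 51.6% (190 of 368) and 23.2% (374 of 1614). A peak of 3 or 4 ZFAT fragments fails the caller's threshold with 1 control fragment over its summit, so the pileup of a listed peak sets much of this share. Within steps of pileup the intervals of acetylated and other peaks overlapped. With 6 to 9 ZFAT fragments the IgG shares were 40.6% (23.7 to 59.4%, 13 of 32) and 32.3% (20.9 to 45.3%, 20 of 62), and the input shares 44.0% (34.5 to 53.9%, 48 of 109) and 32.0% (28.0 to 36.3%, 162 of 506). With 10 or more, they were 82.1% (70.8 to 90.4%) and 64.3% (44.1 to 81.4%) for IgG, and 75.3% (68.3 to 81.4%) and 80.4% (74.8 to 85.3%) for input. At H3K9me3 regions of the input list, they were 43.1% (29.3 to 57.8%) against 33.3% elsewhere with 6 to 9 fragments, and 88.4% (74.9 to 96.1%) against 77.0% (72.4 to 81.2%) with 10 or more.

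**Figure D4:**
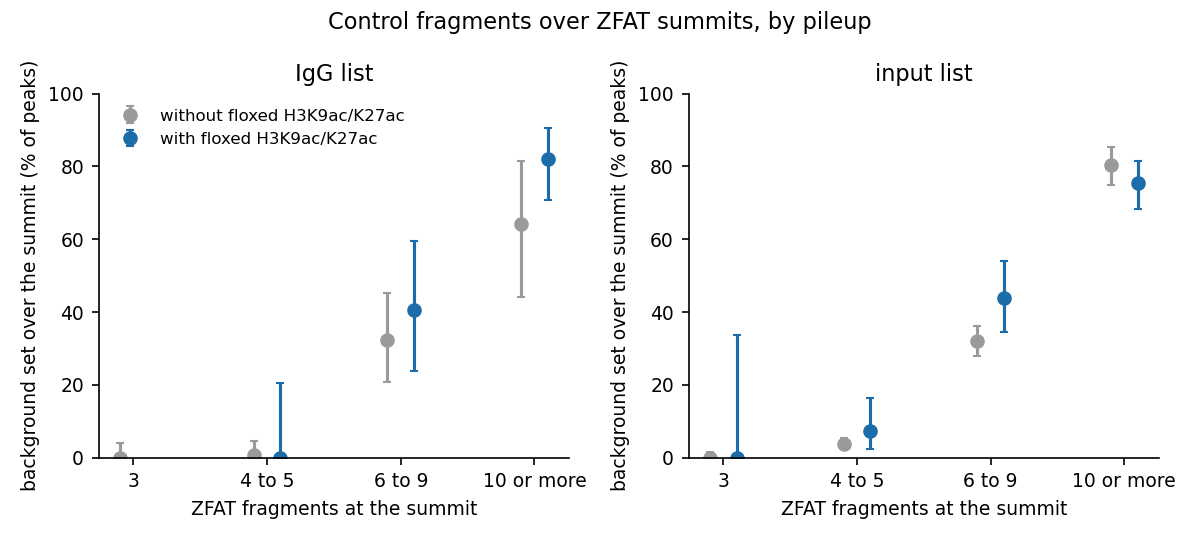
Percent of the peaks of each list, by the number of ZFAT fragments at the summit, whose background was set by control fragments over the summit, with and without a floxed H3K9ac/K27ac peak; bars are exact 95% intervals and peaks at the P score ceiling are left out. At 10 or more fragments the IgG-list shares are 82.1 and 64.3% and the input-list shares 75.3 and 80.4%, with overlapping intervals; the IgG list has no acetylated peak of 3 fragments.

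Weak peaks could be lost to very few control fragments. A peak of 3 ZFAT fragments passes the caller's threshold of 1e-05 up to a background of 0.128, so 1 fragment of either control over the summit, or 10 IgG or 12 input fragments in 5 kb, places it past this limit. At 6 fragments the limit was 0.713, or 2 fragments of either control over the summit. At 9 fragments it was 1.66, or 4 IgG or 5 input fragments. The mean was 0.112 IgG and 0.136 input fragments over a position. The control value at the place of a missing peak is not in the lists, and since no listed peak was shorter than 152 bp, control fragments beside the summit may also have acted. How many of the 1710 input-only and 137 IgG-only regions fell under the limit in this way was not tested. Of the input-only peaks 38.8% stood at the genome-wide mean of the input, as did 46.0% of the IgG-only peaks for IgG.

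The 8 shared peaks ranked highest had P scores at the ceiling in both lists. All 17 IgG peaks at the ceiling tie on the P score and were ordered by IgG fold, so an order by input fold would name other regions. Coordinates are those of the IgG list in mm9. The highest fold was at chr7:134920349-134921446, with 436 over IgG and 563 over input. It was followed by chr9:99468649-99469455 with 368 and 494, and by chr7:20147026-20147901 with 298 over IgG but 218 over input. The region chr12:114238095-114238982 had 286 and 356, and chr2:153458189-153458644 had 256 and 239. The peaks at chr6:113256699-113257741 (176 and 153), chr19:56622317-56622604 (152 and 167) and chr2:153474966-153475662 (152 and 227) completed the group. All 8 had a floxed and an Lck-Cre ZFAT peak, with floxed folds of 311, 278, 312, 179, 211, 136, 142 and 298 and Lck-Cre folds of 79.2, 37.2, 14.4, 27.8, 26.6, 14.3, 10.9 and 14.6 in the same order. The chr19 region had no acetylation peak, while the other 7 had one, and none had H3K9me3. The direction of the change of control differed among these 8 regions: the fold was higher with input in 5 and higher with IgG in 3.

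The strongest peaks called against one control only looked different. The strongest IgG-only peak, at chr2:98502735-98502923, had 510 ZFAT fragments (exact Poisson 95% interval 467 to 556) over an IgG background of 203, which is 446 IgG fragments, and a fold of 2.51. The second, at chr6:103599114-103599271, had 116 fragments over a background of 29.5 and a fold of 3.83. Both had an H3K9me3 peak, and neither had acetylation or a floxed ZFAT peak. Called against input at the same pileup, they would pass only below a background of 420, or 1129 input fragments, and of 76.5, or 206 input fragments. All other IgG-only peaks had a P score under 20. The next was chr10:15254091-15254293, with 8 fragments, the lowest background and an H3K9me3 peak of fold 7.01.

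The acetylated IgG-only regions had a median pileup of 7 and at most 17 fragments, against a median of 5 in IgG-only regions without acetylation. The one with the highest P score was chr12:117643939-117644114 with 10 ZFAT fragments (4.80 to 18.4), a fold of 9.67 and an acetylation fold of 10.0. The peak at chr6:11857826-11857981 had 7 fragments (2.81 to 14.4), no control fragment above the genome-wide mean, an acetylation fold of 22.1 and a floxed ZFAT fold of 8.55. The peak at chr9:119384462-119384626 had 8 fragments and an acetylation fold of 10.6, with no floxed ZFAT peak.

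The 8 strongest input-only peaks all had a P score of at least 50, a background of at least 20, an H3K9me3 peak and a floxed ZFAT peak, and none had acetylation. Of these, 4 lay on chromosome 17 between 39980015 and 39985747. The strongest, chr17:39980627-39981851, had 577 ZFAT fragments (531 to 626) over a background of 154, or 413 input fragments, and a fold of 3.73. Its neighbours had 512 fragments over 139 (chr17:39982015-39983300), 441 over 123 (chr17:39980015-39980201) and 411 over 151 (chr17:39985123-39985747). The first 2 of these 4 regions shared 1 floxed ZFAT peak and 1 H3K9me3 peak, so they are not separate matches. The others were chr16:11144121-11144301 with 220 fragments over 25.3 and a fold of 8.39, chr11:3093114-3093528 with 354 over 84.2, chr9:3019099-3019447 with 206 over 30.5 and chr16:57391595-57391773 with 198 over 33.5. To fall under the threshold against IgG at the same pileup, the strongest would need 1060 IgG fragments over its summit.

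The 301 acetylated input-only regions had a median pileup of 8 and a median input background of 0.373, against 5 and 0.0680 in those without acetylation. The 3 with the highest P scores follow. At chr5:24191816-24192034 there were 30 ZFAT fragments (20.2 to 42.8) over 2 input fragments, a fold of 17.8 and an acetylation fold of 12.5, with no floxed ZFAT peak. At chr11:107331044-107331395 there were 18 fragments, a fold of 15.5 and a floxed ZFAT peak of fold 5.26. At chr6:113327469-113327734 there were 13 fragments, a fold of 13.2 and an acetylation fold of 25.0. A peak of this kind would be lost against IgG with 28, 13 and 8 IgG fragments over the summit, in that order.

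Among strong peaks the counts of marks differed between the classes, and a few regions of high control background made up much of the H3K9me3. With a P score of at least 20, 40 of 55 shared peaks had acetylation, 1 had H3K9me3 and 54 had a floxed ZFAT peak. Of the 29 input-only peaks past that score, 6 had acetylation, 11 had H3K9me3 and 11 had a floxed ZFAT peak. The 9 of them with a background of at least 20 all had H3K9me3 and a floxed ZFAT peak. These 9 regions thus made up most of both counts of 11. Both IgG-only peaks past that score had H3K9me3 and a background of at least 20.

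Only 1 shared peak had such a background. At chr2:98507255-98507442 there were 2837 ZFAT fragments, over 3846 IgG fragments (background 1747) and 4087 input fragments (background 1523). The fold was 1.62 with IgG and 1.86 with input, and the region had an H3K9me3 peak of fold 2.92 and no floxed ZFAT peak. The region also had an Lck-Cre ZFAT peak of fold 1.96 and an Lck-Cre H3K9ac/K27ac peak of fold 1.54, but no floxed acetylation peak. It lay on the same stretch of chromosome 2 as the strongest IgG-only peak. The other 2 of the 3 strongest shared peaks with H3K9me3 rested on 7 fragments (chr17:64472064-64472246, which also had acetylation of fold 4.97) and 5 fragments (chr2:55289639-55289826).

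A few control fragments moved the fold of single pairs by up to 3.11 times. At chr8:86794105-86794295 the 27 ZFAT fragments stood over 5 IgG fragments, with a fold of 8.56, and over the genome-wide mean of the input, with a fold of 26.6. At chr2:57034209-57034378 there were 41 fragments, with 22.0 over 2 IgG fragments and 40.0 over input. At chr8:112814592-112814744 there were 7 fragments, with 4.19 and 7.61. The reverse was seen at chr9:78023742-78023924, where 9 fragments gave a fold of 9.52 with IgG and 5.73 over 2 input fragments in an acetylated region. At chr17:26227071-26227287 the fold was 9.52 with IgG and 7.29 over 1 input fragment, and at chr19:46599413-46599603 it was 5.71 and 4.37. The weakest shared peak, chr12:83668278-83668455, had 3 fragments (0.619 to 8.77), a P score of 5.25 with IgG and 6.07 with input, and none of the marks.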

How the data were processed

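Peaks were called in mm9 with MACS (no version given), per the submitters' processing notes, which list CASAVA 1.8.1 and Trimmomatic 0.22 and, further on, SAMtools 0.1.18. The authors' aligner was not given in the sources used here. Fragments were taken as 150 bp long, peaks passed a p of 1e-05, and the local background was dynamic, per the file headers. The deposited P score is −log10 of the caller's p, and the deposited fold is a ratio of ChIP to background, both per the file headers and both the authors' own values. Calling was per library, and the floxed and Lck-Cre headers name no control.

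Overlaps were found on the listed starts and ends, both counted as part of the peak, with Python 3.11.15, pandas 2.3.3, numpy 2.4.6 and scipy 1.17.1. Shared peaks were counted by the coordinates of the IgG list. Depth is not stated in the lists. The pileup and background were solved from fold = (pileup + 1)/(background + 1) and the Poisson tail; P scores had to match within 0.0001. A whole pileup was found for 2392 of 2392 peaks below the ceiling. Backgrounds were matched to whole control fragments within 0.01 fragments over the summit and 0.02 in the windows. The classes, lists and rules were chosen with earlier results of these data known. Named regions were ranked by P score, with ties by fold: the 8 strongest of each class, the 3 strongest of each class with each floxed mark, the 3 pairs with the highest and the 3 with the lowest input to IgG background, and the weakest shared peak. No genome or annotation of mm9 was used here, so the regions carry no gene names and no sequence, and the lists of thymocyte genes and of markers of other thymus cells could not be applied. Alternatives were another overlap rule, stricter P scores, lists of equal length, and P and pileup steps.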

Additional observations from a re-analysis of the deposited data

How the results depend on the processing

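Of 55 alternative values, 48 stayed within the counting interval of the value reported and 7 moved past it. The 48 include values that could hardly move. Every pair was 1 to 1, so a limit to such pairs changed nothing. Between the B6 lists, a 50% overlap or summits within 100 bp returned the same 290 pairs. The count of 48 is therefore no measure of robustness. With both lists reduced to the 427 peaks of highest P score, 99 were shared (23.2% of either list). With both B6 lists cut to a P score of at least 10 and the classes formed again, 54.1% of the shared peaks (66 of 122) were acetylated. This share was now above the IgG-only share of 31.8%. With mark peaks of a P score of at least 10, acetylation of input-only peaks was 15.6%, H3K9me3 of shared peaks 0.690% and H3K9me3 of input-only peaks 4.62%. With floxed ZFAT peaks of a P score of at least 10, input-only peaks were overlapped at 2.16%. Counting shared peaks by the coordinates of the input list was an alternative chosen after seeing the data. The IgG background was the higher one in 35.2 to 36.0% of pairs under the alternatives. No replicate could be left out, because each ChIP group is 1 library. No paired analysis was possible because each list comes from a single ChIP library and the numbered samples are inputs without lists. About 624000 ChIP fragments limit what can be seen: peaks of 3 to 5 fragments make up 54.5% of the shared class.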
